A study of Mus musculus with 10 samples.

Results

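Immediate early genes are the genes that neurons switch on first after a burst of activity, and 33 of them were followed here, sample by sample, in the hippocampus of mice treated to ablate the meningeal lymphatic vessels. The 33 were taken by symbol from the 28871 genes of the deposited table, and all of them passed the filter on low counts that left 19093 genes for testing. All animals were wild type C57BL/6J males of 2 months. The Visudyne group received this photosensitizer (verteporfin for injection) into the cisterna magna, followed by red light of 689 nm over the intact skull, and the vehicle group received vehicle and, per the labels, the same light step. No measure of the ablation itself is among the data. Both groups had the procedure a second time 2 weeks later, and whole hippocampus was taken 2 weeks after the last one. Each group holds 5 samples: vehicle 1, 4, 7, 10 and 13, and Visudyne 3, 6, 9, 12 and 15. The name of the deposited counts holds the words 'before mwm', probably the Morris water maze, a learning task. Beyond that, the labels do not say how the animals were handled or killed, at what hour, or whether each sample is 1 animal.

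Calcium that enters a neuron through NMDA receptors and voltage-gated channels activates kinases that phosphorylate factors already present, chiefly CREB at cyclic AMP response elements (CREs) and SRF with its ternary complex partners at CArG boxes. Transcription of the immediate early genes follows within minutes and needs no new protein. One set of products are transcription factors (the Fos, Jun, Egr and Nr4a families and Npas4), another set dampens the signal (the Dusp phosphatases), and others act at the synapse (Arc, Homer1, Bdnf). In the hippocampus Fos, Arc and Egr1 are widely used as marks of recently active neurons. Many of these genes also answer to growth factors and stress in glia and vessel cells, and RNA of whole tissue does not separate these sources.

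The promoters of 5 members, set by name, are shown because such stretches are where CREs and CArG boxes are sought. Of the 5, Junb, Nr4a1 and Dusp1 rose with Fos at an unadjusted p under 0.05 in an edgeR fit described further on. None of these passed after adjustment, and without vehicle 13 only Dusp1 among them stayed under 0.05. Each is the 250 bases before the RefSeq start site (GRCm38.p6, the assembly also called mm10), written 5′ to 3′ on the strand of the gene, with capitals marking each CRE core TGACG on either strand (CGTCA when it is on the other strand). CArG boxes and AP-1 sites were to be marked as well, and these 5 stretches hold none. Bases farther before the start were not searched, so a site there would not appear. The Fos stretch lies at chr12:85473640-85473889 on the plus strand, that of Junb at chr8:84978749-84978998 on the minus strand and that of Nr4a1 at chr15:101266596-101266845 on the plus strand. Those of Npas4 and Dusp1 lie at chr19:4989972-4990221 on the minus strand and chr17:26508473-26508722 on the minus strand.
Fos: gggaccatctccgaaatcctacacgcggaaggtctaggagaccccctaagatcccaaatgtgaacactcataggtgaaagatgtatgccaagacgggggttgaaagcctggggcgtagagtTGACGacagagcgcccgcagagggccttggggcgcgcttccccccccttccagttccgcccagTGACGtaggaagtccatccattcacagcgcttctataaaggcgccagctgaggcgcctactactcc
Junb: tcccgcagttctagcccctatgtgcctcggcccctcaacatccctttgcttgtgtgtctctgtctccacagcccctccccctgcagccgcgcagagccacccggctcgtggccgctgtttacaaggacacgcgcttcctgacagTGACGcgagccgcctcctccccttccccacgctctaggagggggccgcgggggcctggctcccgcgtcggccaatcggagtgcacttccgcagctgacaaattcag
Nr4a1: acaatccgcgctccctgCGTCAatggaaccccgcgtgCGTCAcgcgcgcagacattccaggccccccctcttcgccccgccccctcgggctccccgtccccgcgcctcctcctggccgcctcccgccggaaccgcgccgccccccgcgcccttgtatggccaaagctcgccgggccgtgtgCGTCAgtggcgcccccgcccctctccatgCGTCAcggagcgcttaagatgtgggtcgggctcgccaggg
Npas4: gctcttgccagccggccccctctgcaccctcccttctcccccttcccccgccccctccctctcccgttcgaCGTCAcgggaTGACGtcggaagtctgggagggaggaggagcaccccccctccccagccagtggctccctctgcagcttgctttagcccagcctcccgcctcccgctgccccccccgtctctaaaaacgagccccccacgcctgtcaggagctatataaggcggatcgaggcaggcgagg
Dusp1: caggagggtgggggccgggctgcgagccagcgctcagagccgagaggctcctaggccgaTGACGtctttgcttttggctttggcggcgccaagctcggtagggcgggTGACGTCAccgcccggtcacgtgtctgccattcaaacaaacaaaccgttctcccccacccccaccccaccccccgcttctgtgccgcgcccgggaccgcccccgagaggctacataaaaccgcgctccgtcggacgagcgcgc
Fos holds 2 CRE cores, Junb 1, Nr4a1 4 and Npas4 2. Dusp1 holds a core and, in one unbroken run of capitals, the full palindromic CRE TGACGTCA, which contains the core on both strands. The RefSeq table had 41 windows, which also take in the 50 bases after the start, for 25 of the members. Arc, Egr1, Egr3, Ier2, Nptx2, Sik1, Trib1 and Vgf had no window. TGACG occurred on either strand in the windows of 19 of these 25 genes, or 76.0%, against 23% of the 27025 genes in the table. Counted by window it was 61.0% of the members' windows against 20.8% of all 32851. The full CRE was found for Btg2, Dusp1 and Maff, 12% of the 25 genes against 2.03% of all. The CArG box was found for Dusp5 and Egr2, 8.0% against 1.81%. Sites of factors that the members themselves encode were found in few of these windows: the AP-1 site TGACTCA for Csrnp1 (4.0% against 5.95% of all genes), the EGR site GCGTGGGCG for Maff (4.0% against 0.707%), and the Nr4a site AAAGGTCA for none (0.0% against 1.7%). The letters TATAAA occurred for 5 genes, Fos, Gadd45b, Inhba, Junb and Nr4a2, 20% against 15.7%. Genes with several windows have more chances of a match, and a match is no evidence of binding.

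The libraries held between 51165271 and 68895223 estimated counts each, and this total differed between the groups by less than the spread of samples (exact two-sided permutation p = 0.516, n = 5 each). Levels are in CPM, the usual counts-per-million scale, with library totals scaled by TMM, listed in the order of the sample numbers given above, and group values are mean ± SD (n = 5), vehicle first. All 14 markers of hippocampal neurons on the list used were detected, and their summed level ran from 3249 to 3664 CPM for vehicle and from 3004 to 3507 CPM for Visudyne. One library stood apart in these genes: vehicle 13 was the highest of the 10 samples in 10 of the 33 members, against 7.65% of all tested genes. In that library the 12 meningeal fibroblast markers summed to 60.7 CPM, against 99.7 to 136 CPM in the other vehicle and 139 to 174 CPM in the Visudyne samples. Its microglia markers (251 CPM against 258 to 310 CPM in all others) and mural cell markers (135 CPM against 137 to 188 CPM) were also the lowest of the 10 samples. Endothelial markers (160 CPM) lay within the range of the others, 159 to 200 CPM. The part of these cell types in the result was not tested, and fewer cells of a type and less RNA per cell cannot be told apart in bulk RNA. The members' fold changes and slopes are given with and without vehicle 13.

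In some samples most members lay on the same side of their own medians, but in no sample did all 33. In Visudyne 3, 27 of the 33 members lay above their own median over the 10 samples, and in vehicle 13 it was 26, while 52.3% and 49.0% of all tested genes did so in these libraries. At the other end stood vehicle 4 and vehicle 7 with 8 each (48.8% and 51.3% of all tested genes). Visudyne 3 was highest in 7 members, Ier5, Btg2, Gadd45b, Klf4, Dusp1, Nptx2 and Vgf, and lowest in none. Of all tested genes it was highest in 6.75% and lowest in 4.72%. The 10 members highest in vehicle 13 were Fos, Junb, Egr1, Egr2, Egr3, Egr4, Nr4a1, Dusp5, Trib1 and Arc. So all 4 Egr genes peaked in the same library, Egr3 by a small margin (22.3 CPM against 21.6 CPM in Visudyne 3). The 3 Nr4a genes peaked in 3 different ones. The median deviation over the 33 members from their own medians was 0.11 log2 units in vehicle 13 and 0.10 in Visudyne 3, and it was lowest in vehicle 4 at -0.10 and vehicle 7 at -0.10. Over all tested genes these medians were within 0.0057 of 0 in every library.

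**Figure D1:**
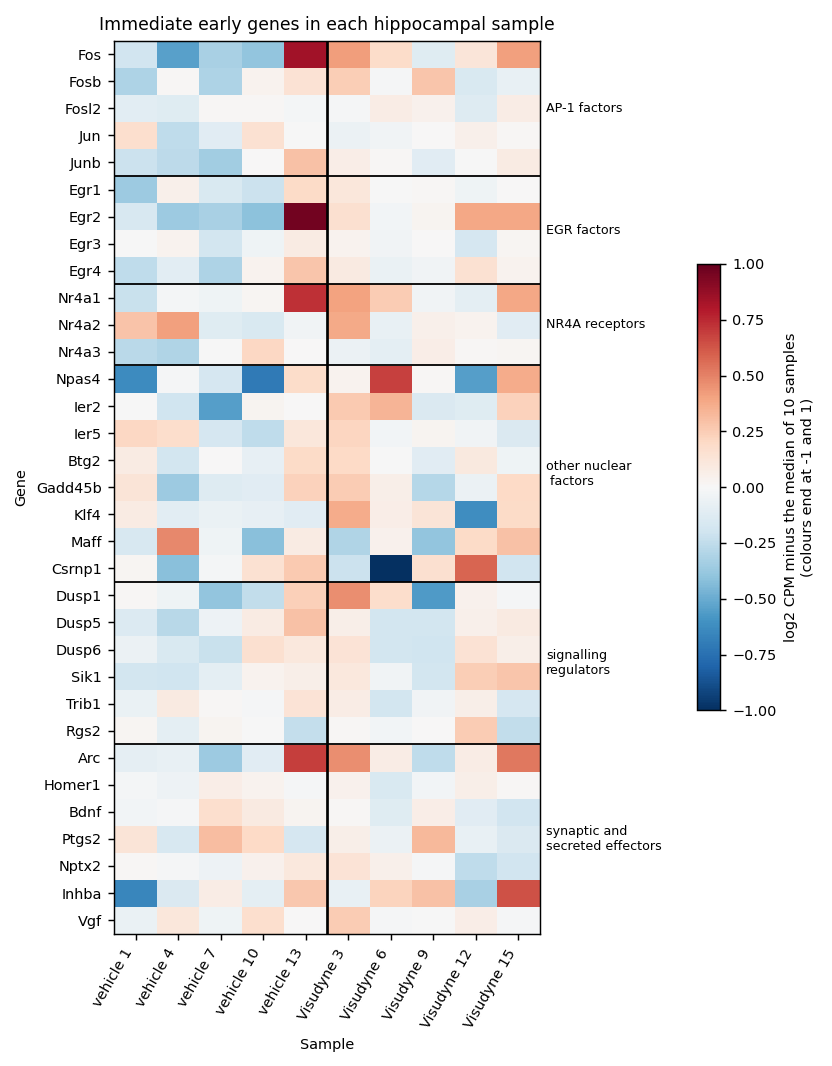
Level of each of the 33 immediate early genes (rows, grouped by role) in each of the 10 samples (columns), as log2 CPM minus the gene's median over the 10 samples. The column of vehicle 13 is the darkest red for Fos, Egr2, Nr4a1 and Arc, while Homer1, Fosl2 and Bdnf stay near white in every column, and the dark blue cell is Csrnp1 in Visudyne 6.

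Fos, the partner of Jun in the AP-1 factor and the archetype of the class, was a low-abundance transcript with 215 to 683 counts per sample. Fos (ENSMUSG00000021250) lies on the plus strand of chromosome 12, from 85473890 to 85477273 (GRCm38). Fos measured 5.30, 4.15, 4.83, 4.61 and 10.8 CPM in the vehicle samples and 8.07, 6.88, 5.57, 6.58 and 8.03 CPM in the Visudyne samples. Vehicle 13 was above every other sample, and the other 4 vehicle samples were below every Visudyne sample. The means were 5.94 ± 2.76 and 7.03 ± 1.05 CPM, with a log2 fold change, Visudyne minus vehicle, of 0.24 (SE 0.24). Without vehicle 13 the vehicle mean was 4.72 ± 0.478 CPM (n = 4). Its close relative Fosb, which gives the stable ΔFosB form after repeated activity, measured 2.28, 2.84, 2.28, 2.89 and 3.12 CPM in the vehicle samples and 3.35, 2.80, 3.43, 2.54 and 2.68 CPM in the Visudyne samples. The groups overlapped through most of their range, with means of 2.68 ± 0.379 and 2.96 ± 0.402 CPM and a log2 fold change of 0.14 (SE 0.13). Junb, a Jun-family partner of Fos, measured 30.5, 29.4, 27.8, 35.6 and 43.4 CPM in the vehicle samples and 37.02, 35.7, 32.7, 35.2 and 37.5 CPM in the Visudyne samples. Again vehicle 13 was highest, and the SD was 1.87 CPM in Visudyne against 6.33 CPM in vehicle samples, or 3.34 CPM without vehicle 13; the log2 fold change was 0.10 (SE 0.11). Jun itself ranged over 55.3 to 74.4 CPM in vehicle and 63.5 to 68.3 CPM in Visudyne samples, with vehicle 1 highest, and Fosl2, which encodes Fra-2, over 41.98 to 46.1 CPM in vehicle and 41.9 to 48.04 CPM in Visudyne samples. Fosl2 was the steadiest of the 5 AP-1 genes.

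The 4 Egr genes encode zinc-finger factors that bind GC-rich sites. Egr1, also known as Zif268 and linked to the maintenance of long-term potentiation, measured 28.8, 38.3, 33.3, 31.9 and 42.3 CPM in the vehicle samples and 40.01, 36.9, 37.4, 35.9 and 37.2 CPM in the Visudyne samples. Vehicle 13 and Visudyne 3 were the 2 highest samples, and the Visudyne samples spanned a narrower range than the vehicle samples; the means were 34.9 ± 5.34 and 37.5 ± 1.51 CPM and the log2 fold change 0.10 (SE 0.089). Egr2, known as Krox20, was among the rarest members with 34 to 110 counts per sample. Egr2 (ENSMUSG00000037868) lies on the plus strand of chromosome 10, from 67535475 to 67542188. Its levels were 0.799, 0.696, 0.715, 0.672 and 1.74 CPM in the vehicle samples and 1.002, 0.879, 0.911, 1.17 and 1.17 CPM in the Visudyne samples. As for Fos, vehicle 13 exceeded all samples and the other 4 vehicle samples lay below all 5 Visudyne samples. The means were 0.925 ± 0.459 and 1.03 ± 0.139 CPM (log2 fold change 0.14, SE 0.27). Counting error alone gives an SD of about 0.19 log2 units at this depth, against 0.42 observed within groups with vehicle 13 included. Without vehicle 13 the vehicle mean was 0.720 ± 0.0551 CPM (n = 4). Egr3 stayed within 18.5 to 22.3 CPM in vehicle and 18.7 to 21.6 CPM in Visudyne samples and Egr4 within 7.09 to 10.6 CPM in vehicle and 8.38 to 9.75 CPM in Visudyne samples, both highest in vehicle 13.

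Nr4a1, Nr4a2 and Nr4a3 encode orphan nuclear receptors (Nur77, Nurr1 and Nor-1) that act without a classical ligand and are needed for consolidation of hippocampal memory. Nr4a1 measured 16.7, 19.3, 18.9, 19.7 and 32.5 CPM in the vehicle samples and 25.9, 23.3, 19.1, 18.3 and 25.6 CPM in the Visudyne samples. Vehicle 13 was highest, Visudyne 3 and 15 followed, and the remaining samples of both groups were mixed. The means were 21.4 ± 6.27 and 22.4 ± 3.58 CPM, with a log2 fold change of 0.064 (SE 0.17). Nr4a1 (ENSMUSG00000023034) lies on the plus strand of chromosome 15, from 101254269 to 101274795. Nr4a2 (39.9 to 59.1 CPM in vehicle and 40.97 to 57.9 CPM in Visudyne samples) was highest in vehicle 4 and Nr4a3 (41.2 to 58.4 CPM in vehicle and 47.4 to 53.01 CPM in Visudyne samples) in vehicle 10, so neither shared the profile of Nr4a1.

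Npas4 encodes a neuron-specific factor that responds to calcium entry and regulates inhibitory synapses. It measured 2.56, 3.90, 3.52, 2.41 and 4.48 CPM in the vehicle samples and 4.04, 6.32, 3.98, 2.69 and 5.11 CPM in the Visudyne samples. Visudyne 6 and 15 were highest, vehicle 10 lowest, and the groups overlapped. The means were 3.37 ± 0.884 and 4.43 ± 1.36 CPM, and the log2 fold change of 0.39 (SE 0.23) was the largest of the 33 members. Ier2, a small nuclear protein gene of the early response, measured 1.85, 1.62, 1.27, 1.90 and 1.87 CPM in the vehicle samples and 2.23, 2.36, 1.69, 1.71 and 2.18 CPM in the Visudyne samples. Visudyne 6 was highest and vehicle 7 lowest, with a log2 fold change of 0.25 (SE 0.15). Btg2, an antiproliferative cofactor, measured 12.1, 10.1, 11.5, 10.8 and 13.1 CPM in the vehicle samples and 13.1, 11.4, 10.6, 12.2 and 11.1 CPM in the Visudyne samples. Its 2 highest values came from vehicle 13 and Visudyne 3, 1 from each group, and its log2 fold change was 0.022 (SE 0.081). Csrnp1, a nuclear protein first found as induced by axin, had the widest spread. It measured 4.84, 3.57, 4.73, 5.32 and 5.75 CPM in the vehicle samples and 4.11, 0.892, 5.33, 7.18 and 4.20 CPM in the Visudyne samples. The Visudyne group held both its lowest sample, Visudyne 6 with 64 counts, and its highest, Visudyne 12, and the log2 fold change was -0.16 (SE 0.37). Of the others in this class, the DNA-damage and growth-arrest gene Gadd45b ranged over 4.79 to 7.24 CPM in vehicle and 5.08 to 7.36 CPM in Visudyne samples, Ier5, which acts on the heat shock factor HSF1, over 29.2 to 40.1 CPM in vehicle and 31.4 to 40.3 CPM in Visudyne samples, the zinc-finger factor Klf4, which is also made in endothelium, over 2.28 to 2.62 CPM in vehicle and 1.605 to 3.20 CPM in Visudyne samples, and the small Maf factor Maff over 0.415 to 0.773 CPM in vehicle and 0.422 to 0.680 CPM in Visudyne samples. Maff rests on 21 to 41 counts per sample.

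Among the regulators that limit signalling, Dusp1, a phosphatase of the MAP kinases p38 and JNK, measured 10.1, 9.78, 7.65, 8.46 and 11.9 CPM in the vehicle samples and 13.9, 11.3, 6.78, 10.4 and 10.003 CPM in the Visudyne samples. The Visudyne group held the highest sample, Visudyne 3, and the lowest, Visudyne 9, and the log2 fold change was 0.13 (SE 0.17). Sik1, a salt-inducible kinase that restrains CREB coactivators, measured 9.19, 9.10, 9.75, 10.7 and 10.9 CPM in the vehicle samples and 11.2, 10.2, 9.20, 12.3 and 12.6 CPM in the Visudyne samples. Its 3 highest samples were Visudyne 15, 12 and 3, but Visudyne 9 lay among the lowest, and the log2 fold change was 0.16 (SE 0.093). Trib1, a pseudokinase, measured 7.68, 8.60, 8.12, 8.01 and 8.87 CPM in the vehicle samples and 8.48, 7.10, 7.86, 8.38 and 7.18 CPM in the Visudyne samples. The groups overlapped, with a log2 fold change of -0.082 (SE 0.073). The ERK phosphatases Dusp5 and Dusp6 ranged over 12.02 to 17.9 CPM in vehicle and 12.8 to 15.5 CPM in Visudyne samples, and 38.8 to 50.6 CPM in vehicle and 39.3 to 49.9 CPM in Visudyne samples, respectively. Rgs2, which speeds the shut-off of G proteins, ranged over 22.5 to 26.9 CPM in vehicle and 22.3 to 31.5 CPM in Visudyne samples.

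Arc, which encodes a capsid-like protein that drives removal of AMPA receptors, was the member with the largest swings among abundant transcripts, at 2904 to 7580 counts per sample. Arc (ENSMUSG00000022602) lies on the minus strand of chromosome 15, from 74669083 to 74672570. Arc measured 69.95, 70.7, 57.7, 68.8 and 120.1 CPM in the vehicle samples and 103, 78.1, 62.2, 78.3 and 107 CPM in the Visudyne samples. Vehicle 13, Visudyne 15 and Visudyne 3 were the 3 highest samples, well apart from the next at 78.3 CPM, so that high samples occurred in both groups. The means were 77.4 ± 24.4 and 85.7 ± 18.8 CPM and the log2 fold change was 0.14 (SE 0.19). Homer1, a scaffold of metabotropic glutamate receptors whose short form Homer1a is the activity-induced product, measured 141, 138, 149, 146 and 142 CPM in the vehicle samples and 147, 128, 140.2, 148 and 144 CPM in the Visudyne samples. These 10 values lay within a factor of 1.16 of each other, and the log2 fold change was -0.016 (SE 0.048). The neurotrophin gene Bdnf measured 43.9, 44.4, 50.2, 47.7 and 45.6 CPM in the vehicle samples and 45.1, 41.2, 46.9, 41.2 and 39.3 CPM in the Visudyne samples. Visudyne samples 6, 12 and 15 were the 3 lowest and vehicle 7 the highest; the log2 fold change of -0.12 (SE 0.059) had the smallest p of the 33 members (unadjusted p = 0.0718, edgeR adjusted p = 0.9999). Because the counts are sums per gene, the inducible Homer1a and the activity-dependent 5′ exons of Bdnf could not be told from the constitutive forms. Nptx2, a secreted pentraxin that clusters AMPA receptors, measured 18.8, 18.6, 18.04, 19.3 and 20.2 CPM in the vehicle samples and 20.6, 19.4, 18.5, 15.7 and 16.4 CPM in the Visudyne samples. Visudyne 12 and 15 were the lowest samples and Visudyne 3 the highest, with a log2 fold change of -0.068 (SE 0.073). The remaining effectors were Ptgs2 (cyclooxygenase-2; 19.6 to 27.3 CPM in vehicle and 19.9 to 27.6 CPM in Visudyne samples), Inhba, which encodes a subunit of activin (1.55 to 2.93 CPM in vehicle and 1.95 to 3.78 CPM in Visudyne samples), and the neuropeptide precursor gene Vgf (80.5 to 94.7 CPM in vehicle and 83.4 to 100.3 CPM in Visudyne samples).

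**Figure D2:**
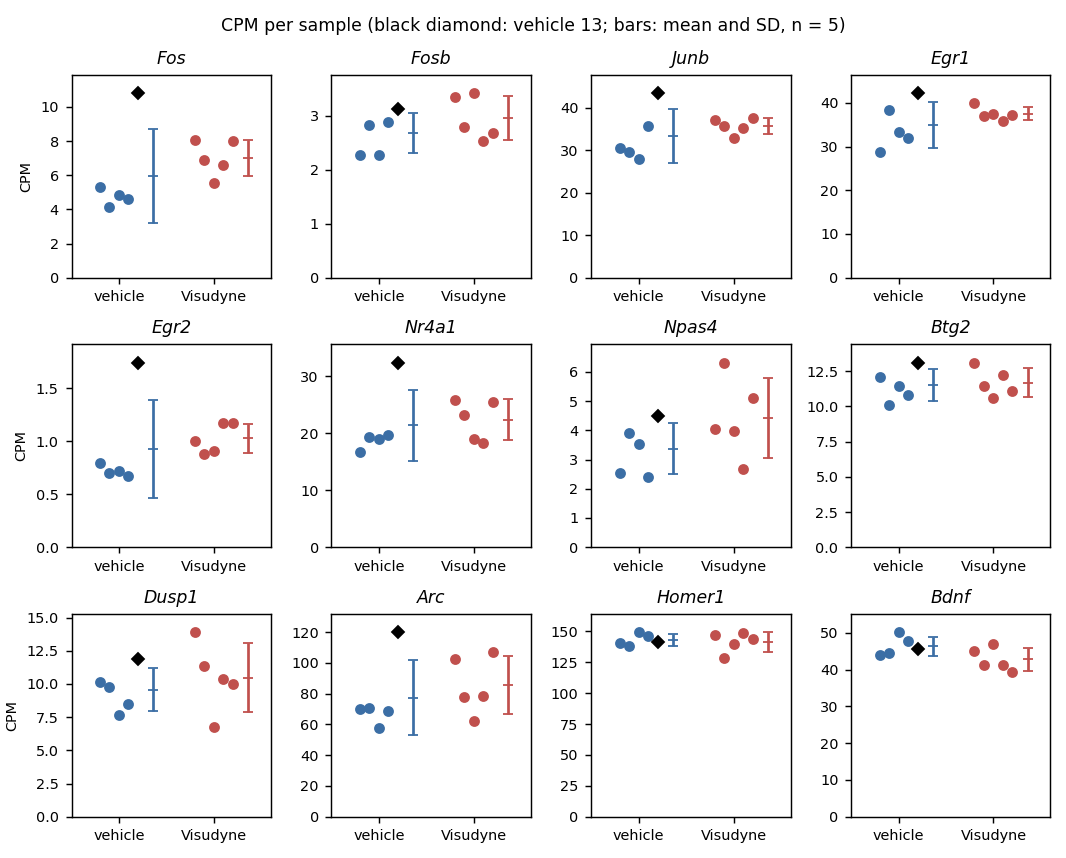
CPM in each of the 5 vehicle and 5 Visudyne samples for 12 immediate early genes, with the group mean and SD beside the points and vehicle 13 drawn as a black diamond; every axis starts at 0. For Fos and Egr2 the other 4 vehicle samples sit below all Visudyne samples while vehicle 13 sits above them, and Homer1 and Bdnf show little spread.

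Per kilobase of annotated exon, a scale on which different genes can be compared, the most abundant members were Vgf (29.3 CPM per kilobase), Arc (26.7), Jun (20.7), Junb (14.99) and Dusp6 (14.3). The rarest were Maff (0.214), Egr2 (0.287), Inhba (0.397) and Fosb (0.452). Fos, at 2.76 CPM per kilobase, ranked 23 of 33. The length is the union of all annotated exons, which can be longer than any single transcript, so that genes with many isoforms may be understated. Exons of Jun, Junb, Bdnf, Dusp1, Dusp5 and Csrnp1 overlap those of a gene on the opposite strand, by 11 bases for Dusp1 and 896 bases for Bdnf. The library kit keeps the strand, but whether the counting used it is not given in the sources used here.

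No immediate early gene passed the test for a difference between Visudyne and vehicle samples. With edgeR's quasi-likelihood test, 0 of the 33 members passed an adjusted p of 0.05, and every member had an adjusted p of 0.9999; of all 19093 tested genes 4, or 0.021%, passed. At an unadjusted p under 0.05 there were again 0 of 33 members, against 1.7% of all genes. DESeq2 and limma voom also called 0 members. Fold changes were positive for 21 and negative for 12 members, with a median of 0.055 on the log2 scale, against 0.0022 over all tested genes. By role the medians were 0.095 for the AP-1 genes (4 of 5 positive), 0.097 for the Egr genes (3 of 4), 0.048 for the Nr4a genes (2 of 3), 0.050 for the other nuclear factors (5 of 8), 0.042 for the signalling regulators (4 of 6) and -0.016 for the effectors (3 of 7). These medians moved with single libraries. Over the removal of each sample in turn they ran from 0.053 (without vehicle 4) to 0.21 (without vehicle 13) for AP-1, from 0.043 (vehicle 1) to 0.19 (vehicle 13) for Egr, from 0.00077 (vehicle 1) to 0.074 (vehicle 13) for Nr4a and from 0.024 (Visudyne 3) to 0.095 (vehicle 13) for the other nuclear factors. That of the signalling regulators turned negative without Visudyne 3 or 12 (range -0.0067 to 0.077), and that of the effectors turned positive without Visudyne 6 or vehicle 7 (range -0.031 to 0.018). The median of all 33 ran from 0.020 (without Visudyne 3) to 0.074 (without vehicle 13). In none of the 33 did the groups separate, while 0.319% of tested genes had every Visudyne value above every vehicle value. Markers of meningeal fibroblasts moved with the groups: all 12 had positive fold changes with a median of 0.43, and Col1a1, a collagen gene, passed the test (edgeR adjusted p = 0.049). Without vehicle 13, 10 of the 12 were positive with a median of 0.36. Col1a1 no longer passed there, nor without Visudyne 3, 6, 9, 12 or 15 or vehicle 7 or 10, with upper-quartile factors, when at least 1 CPM in 5 samples was required or without mitochondrial genes. Of the 14 hippocampal neuron markers 2 had positive fold changes (median -0.058) and 0 passed. The part of either in the members' values was not tested.

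Leaving out vehicle 13 moved the fold changes of the members that peaked in it. The log2 fold change of Fos was then 0.58 (SE 0.12), with an unadjusted p of 0.00054 and an edgeR adjusted p of 0.861. That of Egr2 was 0.51 (SE 0.18), of Arc 0.37 (SE 0.14), of Nr4a1 0.27 (SE 0.11), of Junb 0.22 (SE 0.072), of Egr1 0.19 (SE 0.075) and of Egr4 0.20 (SE 0.084). Npas4 had 0.53 (SE 0.24). It peaked in Visudyne 6, but vehicle 13 was its highest vehicle sample too, at 4.48 CPM. These 8 members had an unadjusted p under 0.05, all with higher levels in Visudyne samples, 8 of 33 against 1.61% of all tested genes. None passed after adjustment over all genes (smallest edgeR adjusted p = 0.861). Fos and Egr2 were then higher in all 5 Visudyne samples than in all 4 vehicle samples, 2 of 33 members against 0.555% of tested genes. Bdnf stayed at -0.11 (SE 0.062) and Homer1 at -0.012 (SE 0.049). Vehicle 13 was singled out by the levels of these very genes, and removing the highest control sample raises a difference by construction, so these values describe its weight and are no test of the treatment. The removal of 2 other libraries brought single members to an unadjusted p under 0.05: Sik1 and Bdnf without Visudyne 9, and Klf4 and Npas4 without Visudyne 12.

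**Figure D3:**
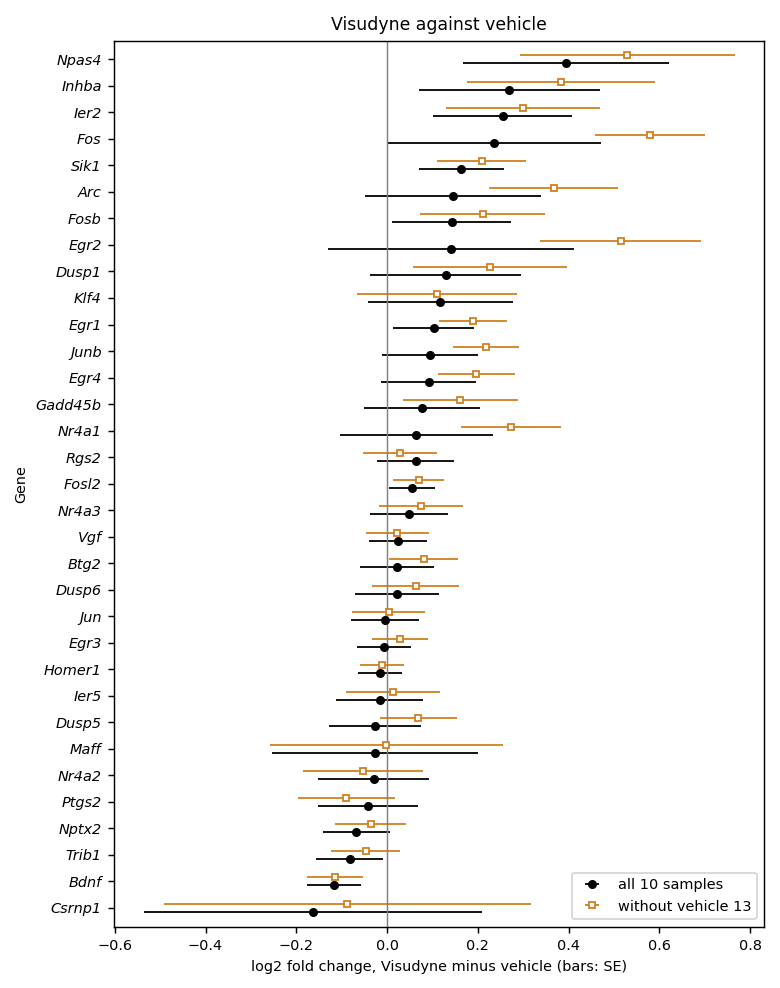
Log2 fold change, Visudyne minus vehicle, with its SE for each of the 33 immediate early genes, from all 10 samples (black) and without vehicle 13 (orange). Without vehicle 13 the largest shifts to the right are those of Fos, Egr2, Arc and Nr4a1, while Homer1, Bdnf and Fosl2 barely move.

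The spread between samples of a group differed widely among the members. The SD of log2 CPM within groups had a median of 0.181 over the 33 members, against 0.154 over all tested genes, and ranged from 0.068 for Homer1 to 0.83 for Csrnp1. Of the 33 members, 23 lay above the median of all tested genes. Only 5 lay above their upper quartile, a smaller share than that quartile holds of all genes by definition. These 5 were Csrnp1, Npas4 (0.42), Fos (0.42), Egr2 (0.42) and Arc (0.36). Inhba (0.35) was just below. Among the 14838 tested genes within the members' range of level the median was 0.135, and counting error at the depth of Arc amounts to 0.021 log2 units. Fos had a coefficient of variation of 46.4% among vehicle and 15.01% among Visudyne samples, and that of Egr2 was 49.7% and 13.5%. Vehicle 13 set this order. Without it the vehicle SD was 0.478 CPM for Fos (2.76 with it), 0.0551 CPM for Egr2 (0.459), 6.12 CPM for Arc (24.4) and 1.35 CPM for Nr4a1 (6.27). Each of these 4 was then below the Visudyne SD, which was 1.05, 0.139, 18.8 and 3.58 CPM in the same order. By role the median SD was largest for the other nuclear factors (0.25) and smallest for the effectors (0.12), although the effectors include Arc. Without vehicle 13 the median SD of the 33 was 0.159.

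**Figure D4:**
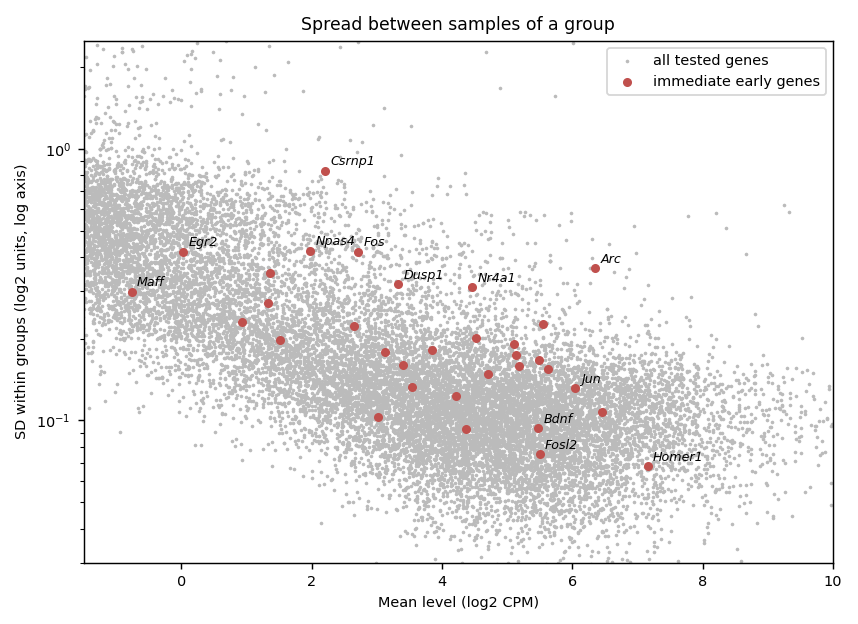
SD of log2 CPM within groups (log axis) against mean level (log2 CPM) for all tested genes within the plotted range (grey) and the 33 immediate early genes (red). Csrnp1, Npas4, Fos, Egr2 and Arc lie high, Arc at a level where most genes spread less, and Homer1 and Fosl2 lie low.

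To ask which genes varied together with Fos between samples of a group, each gene was fitted with edgeR on treatment and on the log2 CPM of Fos, and the slope is the log2 change per log2 unit of Fos. A slope of 1 means a change in proportion to Fos. After adjustment over 19092 genes, 0% passed, and 0 of 32 members; at an unadjusted p under 0.05 there were 235 genes with positive and 204 with negative slopes. Among the members 9 of 32 had a positive slope with an unadjusted p under 0.05, against 1.23% of all genes, and none had a negative one. They were Egr2 (0.95, SE 0.21), Arc (0.77, SE 0.12), Nr4a1 (0.64, SE 0.11), Dusp1 (0.46, SE 0.19), Gadd45b (0.43, SE 0.12), Junb (0.38, SE 0.085), Dusp5 (0.34, SE 0.094), Egr4 (0.29, SE 0.11) and Btg2 (0.24, SE 0.086). Arc had the smallest p of the members (unadjusted 5.2e-05, edgeR adjusted p = 0.492) and Nr4a1 the next (0.00011, adjusted 0.642). DESeq2 called Arc (adjusted p = 4.2e-05) and Nr4a1 (adjusted p = 0.0026), and these were its 2 genes with a positive slope, 0.0105% of all tested. In all 27 of the 32 slopes were positive, with a median of 0.12 against -0.0022 over all genes.

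Some of the other members had slopes smaller in size than their SE. The slope was 0.0044 (SE 0.066) for Homer1, -0.054 (SE 0.080) for Bdnf, 0.12 (SE 0.17) for Fosb and 0.065 (SE 0.10) for Trib1. Npas4 (0.37, SE 0.28), Egr1 (0.21, SE 0.10) and Csrnp1 (0.13, SE 0.50) had positive slopes that did not reach an unadjusted p of 0.05. Nor did the positive slopes of Sik1 (0.20, SE 0.12) and Dusp6 (0.18, SE 0.12). Negative slopes larger than their SE, also short of that level, were those of Ptgs2 (-0.25, SE 0.14) and Rgs2 (-0.18, SE 0.11). These slopes depended on vehicle 13. Without it 3 members kept a positive slope with an unadjusted p under 0.05, Arc at 1.05 (SE 0.30), Dusp1 at 1.05 (SE 0.43) and Gadd45b at 1.05 (SE 0.22), against 0.391% of all genes, and none passed after adjustment. The slope of Egr2 was then 0.42 (SE 0.54) and that of Nr4a1 0.57 (SE 0.29), while those of Egr1, Egr4 and Fosb turned negative, at -0.18 (SE 0.23), -0.049 (SE 0.26) and -0.41 (SE 0.40). With Arc in place of Fos as the reference, 11 members had a positive slope with an unadjusted p under 0.05, against 2.21% of all genes: Fos, Junb, Egr1, Egr2, Egr4, Nr4a1, Gadd45b, Dusp1, Dusp5, Dusp6 and Sik1. Ptgs2 and Rgs2 had negative slopes at that level. The 12 fibroblast markers all had negative slopes on Fos with all 10 samples, with a median of -0.58, 5 of them with an unadjusted p under 0.05. Without vehicle 13, 9 of the 12 slopes were positive, the median was 0.32 and 0 had an unadjusted p under 0.05. The part of the amount of meningeal tissue in these slopes was not tested.

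**Figure D5:**
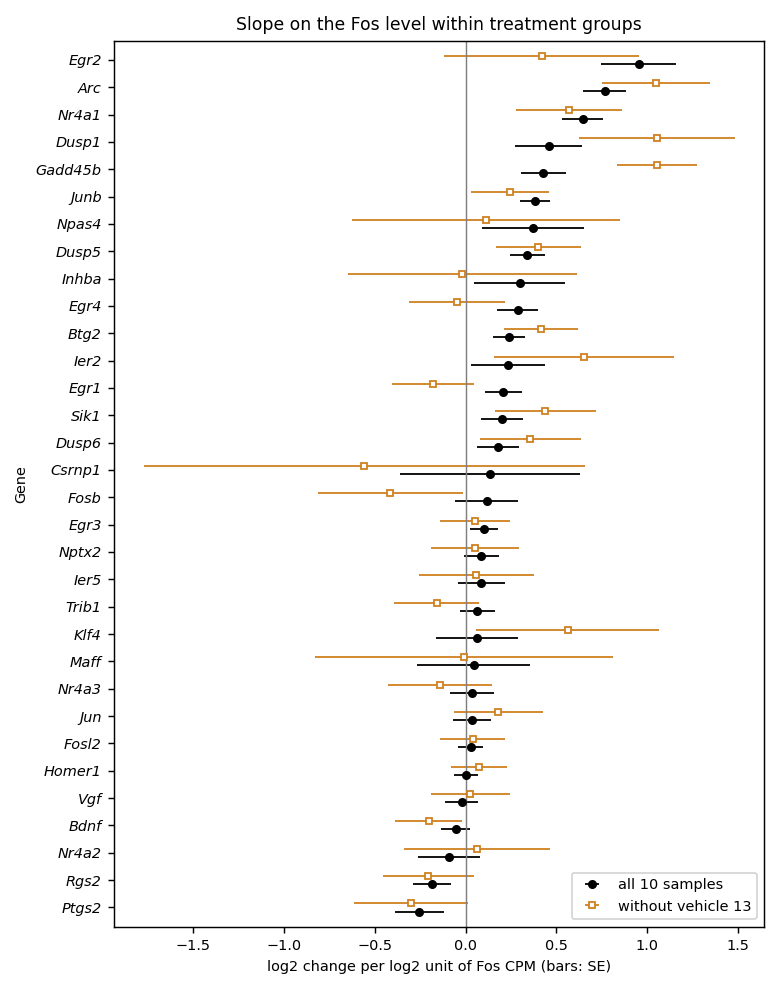
Slope of each of 32 immediate early genes on the log2 CPM of Fos, with treatment in the model, as points with SE, from all 10 samples (black) and without vehicle 13 (orange). Egr2, Arc and Nr4a1 have the steepest slopes, Homer1 and Vgf lie at 0, and the SEs widen without vehicle 13.

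No gene of the machinery upstream of the members passed the test between groups. Of 35 tested genes for calcium and ERK signalling, CREB, SRF and MEF2 factors and their coactivators, 0 passed the test, 12 had positive fold changes and the median was -0.028 (-0.0010 without vehicle 13). The 2 of smallest p were Camk2b, a subunit of the calcium kinase CaMKII (832 ± 32.9 and 765 ± 30.4 CPM, log2 fold change -0.12, SE 0.046), and the calcineurin subunit gene Ppp3ca (1669 ± 98.96 and 1531 ± 148 CPM, log2 fold change -0.12, SE 0.070), both with an edgeR adjusted p of 0.9999. Of 51 further activity-induced genes 0 passed and 19 were positive, with a median of -0.022 that turned positive without vehicle 13 (0.0047) or Visudyne 6 (0.00057). The smallest p belonged to Nrn1, which encodes the growth-promoting surface protein neuritin (166 ± 12.5 and 149 ± 12.5 CPM, log2 fold change -0.16, SE 0.068), and Fosl1, another AP-1 gene (3.19 ± 0.328 and 2.75 ± 0.173 CPM, log2 fold change -0.21, SE 0.10), with an edgeR adjusted p of 0.9999 each. Glucocorticoid-induced genes, which respond to stress hormone, gave 0 calls of 12, 6 positive and a median of -8.9e-05, which took either sign over the removal of single samples (-0.060 without Visudyne 12 to 0.089 without Visudyne 6). Their 2 of smallest p were the lipid droplet gene Plin4 (4.62 ± 2.12 and 1.55 ± 1.79 CPM, log2 fold change -1.55, SE 0.81) and the zinc-finger gene Zbtb16 (61.4 ± 3.48 and 57.4 ± 3.65 CPM, log2 fold change -0.10, SE 0.055), with an edgeR adjusted p of 0.9999 each. In the fit on Fos, 3 of the 35 upstream genes, 2 of the 51 activity-induced and 0 of the 12 glucocorticoid-induced genes had a positive slope with an unadjusted p under 0.05, against 1.23% of all genes. Without vehicle 13 these counts were 1 of 35, 0 of 51 and 0 of 12, against 0.391%.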

How the data were processed

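Total RNA of hippocampus was column-extracted and made into stranded total RNA libraries, per the labels' protocols. What the authors deposited is 1 table of estimated counts by Ensembl gene. The submitters' processing notes name Salmon, FastQC and build mm10. No version, annotation or way of summing transcripts is stated there. The counts are whole, so rounding changed nothing. Symbols came from GENCODE M21 (28564 of 28871 identifiers matched; the others held 0.134% of counts). Groups followed the sample titles. All 45 library pairs differed by more than counting noise, with a chi-square statistic over its degrees of freedom of 10.5 to 74.1. P-values set a difference or slope against the spread between these samples, and that spread may be technical.

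The main test was edgeR 4.0.16 (R 4.3.3) with the quasi-likelihood F-test, its default low-count filter, TMM and Benjamini-Hochberg adjustment over all tested genes at 0.05. Log2 CPM used a prior count of 2. SEs were derived from F statistics. Alternatives used DESeq2 1.42.0, limma 3.58.1 (voom), other scalings and filters, the sample number as covariate, and removal of single samples. The members and lists were chosen with earlier results of these data known. Named genes followed a rule: 12 set members, the 3 of smallest p per direction, the 3 of largest spread, and the 2 of smallest p of each pathway list; other genes were picked with their values in view. The scripts for both fits were tested on simulated data, with 50 genes changed at each size. The treatment fit called 40% of 1.25-fold, 68% of 1.5-fold and 98% of 2-fold changes, and 6.7% of its calls were false. The fit on Fos called 2% of slopes of 0.25, 60% of slopes of 0.5 and 84% of slopes of 1, with 3.2% false calls. Small changes were thus often missed, and the absence of a call does not exclude them.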

Additional observations from a re-analysis of the deposited data

Results flagged for a closer look

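Each member was screened in each group for a sample far from the other 4, by the gap to its nearest neighbour over the whole range of the group. Of 66 groups screened 5 met this, where chance gives about 1 in 20 if values are normally distributed. Of the 5, 4 came from vehicle 13, so these share a library and cannot be counted as separate events. In that sample Fos measured 10.8 CPM while the other vehicle samples measured 4.15 to 5.30 CPM, and Egr2 measured 1.74 CPM against 0.672 to 0.799 CPM. Nr4a1 measured 32.5 CPM against 16.7 to 19.7 CPM, and Arc 120.1 CPM against 57.7 to 70.7 CPM. The fifth was Klf4 in vehicle 1, at 2.62 CPM against 2.28 to 2.36 CPM, which is a small difference on a tight group. Csrnp1 in Visudyne 6 (0.892 CPM against 4.11 to 7.18 CPM in the other Visudyne samples) did not meet the screen. The screen was run on CPM, and on the CPM scale the other samples were themselves spread. It was not repeated on log2 CPM, where the outcome for Csrnp1 may differ.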

How the results depend on the processing

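No member passed in the treatment comparison under any of the 18 alternatives; requiring 1 CPM in 5 samples left 31 of the 33 in the test. The number of all genes that were higher, 4 in the main test, was 2 with upper-quartile factors, 2 without mitochondrial genes, 18 with DESeq2 and 19 with the sample number as covariate; the cause was not tested. Over single-sample removals it ranged from 0 to 4: 0 without Visudyne 3, Visudyne 6 or vehicle 7, and 1 without Visudyne 9, 12 or 15 or vehicle 10 or 13. Genes that were lower ranged from 0 to 1, with the 1 without vehicle 1. In the fit on Fos, DESeq2 called 2 genes with positive slopes, both members (Arc and Nr4a1), and 3 with negative slopes, against 0 of each by edgeR. Signs of fold changes held under all alternatives for 18 of 33 members. Over single-sample removals the log2 fold change ranged over -0.015 to 0.27 for Nr4a1, -0.023 to 0.080 for Btg2, -0.031 to 0.018 for Homer1 and -0.42 to 0.10 for Csrnp1. The slope on Fos ranged over -0.41 to 0.20 for Fosb, -0.18 to 0.31 for Egr1, -0.049 to 0.34 for Egr4, -0.56 to 0.25 for Csrnp1, -0.16 to 0.10 for Trib1 and -0.019 to 0.074 for Homer1. With the sample number as covariate it was -0.11 for Csrnp1 and -0.015 for Homer1, and for Homer1 -0.00064 with no filter, -0.0094 on Junb and -0.0040 without the group term; the cause was not tested. The members' median level was 4.21 log2 CPM, and 4.56 without mitochondrial genes, whose removal shrinks the total. Depth limits Maff and Egr2 most. No paired analysis was made, because the labels name no pairs and the groups share no sample number.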

Other observations

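The 3 genes Map9, Xrn1 and Acsf3, which are not members, were called by DESeq2 for a negative slope on Fos but not by edgeR or limma voom, and they were named after their values were seen. All 3 were lowest in vehicle 13. Map9, which encodes a microtubule-associated protein of the spindle, measured 61.5 CPM there and 76.8 to 106 CPM in the other samples. Xrn1, the cytoplasmic exonuclease that degrades mRNA from the 5′ end, measured 2.99 CPM against 4.62 to 6.19 CPM. Acsf3, a mitochondrial malonyl-CoA synthetase gene, measured 0.016 CPM against 0.331 to 2.69 CPM.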
